A study of Saccharomyces cerevisiae with 4 samples.

Results

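The 8 subunits of the cytosolic chaperonin CCT (also called TRiC) were followed at the mRNA level in budding yeast before and after induction of an amyloid-forming human peptide. The members are the rows named TCP1, CCT2, CCT3, CCT4, CCT5, CCT6, CCT7 and CCT8, that is 8 of the 6782 genes with values, and they were taken by name and not by their values. All 8 were found, and all 8 passed the filter on low values.

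Every library came from yeast of the W303 background with 6xIAPP in single copy at LEU2, behind a promoter that estradiol turns on. IAPP is islet amyloid polypeptide, a hormone of pancreatic beta cells known for forming amyloid, and the construct's full make-up is not spelled out in the labels. The uninduced group (n = 2) received the solvent DMSO for 6 h and the induced group (n = 2) received 100 nM estradiol for 6 h, both in log phase in 5 mL cultures that the design text calls biological replicates. Both groups carried the construct, and no library with estradiol and without the construct was analysed here, so the hormone and the construct cannot be told apart. The transcript of the construct itself was not analysed here.

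CCT is a barrel of a pair of stacked rings, each ring holding all of the subunits in a fixed order. It closes around a client protein and folds it in a cycle driven by ATP, and it is known above all as the folding machine of actin and tubulin and of many proteins built from WD40 repeats. Prefoldin, a jellyfish-shaped complex, hands it unfolded actin and tubulin, and phosducin-like proteins adjust its work. All of the subunits are related in sequence, each is essential in yeast, and a working ring needs every one of them. In the ring CCT2 and CCT6 lie across from each other, and each of them touches its own copy in the other ring. TCP1, CCT2, CCT4 and CCT5 form the side of the ring that binds ATP tightly, and CCT3, CCT6, CCT7 and CCT8 the side that binds it weakly.

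The 4 libraries held 10397606 to 15582338 reads, recovered from the authors' values, with 1653 to 5622 reads per subunit gene and library. Levels are normalized CPM, read counts divided by a library size that the authors scaled, given as mean ± SD of 2 libraries. A log2 change is the induced mean of log2(CPM + 1) less the uninduced mean, given as value ± SE. A gene was called where the adjusted p (limma, Benjamini-Hochberg over all genes tested) was under 0.05. The response was broad, with 4387 of 6037 genes tested called (72.7%), 2152 higher (35.6%) and 2235 lower (37.0%), so a call on its own sets no gene apart. Within a pair of replicates no subunit differed by more than 0.12 on the log2 scale, against a smallest absolute change between groups of 0.19.

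The subunits did not move together. CCT6 and CCT2 rose, by 41.9% and 29.7% of their uninduced mean, and TCP1, CCT3, CCT4, CCT5, CCT7 and CCT8 fell, each by a similar and smaller step. All 8 were called, 2 higher and 6 lower, beside 72.7% of all genes. The median log2 change of the 8 was -0.23, beside 0.00 over all genes tested, and the spread from the lowest to the highest subunit was 0.80. The 6 subunits that fell lay within 0.11 of each other, from -0.30 to -0.19, with a median of -0.25.

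CCT6 (YDR188W, chrIV:836421-838061, plus strand), the zeta subunit, had 254 and 250.3 CPM uninduced and 355 and 361 CPM induced. Both induced libraries lay above both uninduced ones, by far more than the replicates differed. The mean went from 252 ± 2.73 to 358 ± 4.56 CPM, a log2 change of 0.50 ± 0.05 (adjusted p = 7.45e-07). This was higher than the change of 80.5% of the genes tested. CCT2 (YIL142W, chrIX:83302-84885, plus strand), the beta subunit, had 222 and 238 CPM uninduced and 305 and 291 CPM induced. Its groups were again apart, with wider replicates than those of CCT6. The mean went from 230.0 ± 10.9 to 298 ± 9.79 CPM, a log2 change of 0.37 ± 0.05 (adjusted p = 3.35e-05), above 74.9% of genes.

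CCT4 (YDL143W, chrIV:199996-201582, plus strand), the delta subunit, fell most, from 266 and 275 CPM uninduced to 220.5 and 219 CPM induced (-0.30 ± 0.05, adjusted p = 0.000103). CCT3 (YJL014W, chrX:407558-409162, plus strand), the gamma subunit, which is also annotated as binding proteins rich in glutamine and asparagine, had 301 and 308 CPM uninduced and 254 and 249 CPM induced (-0.28 ± 0.05, adjusted p = 0.000196). CCT3 was the highest of the 8 in both uninduced libraries, in CPM and per kb of coding length, and CCT6 was the highest in both induced ones. TCP1 (YDR212W, chrIV:887232-888911, plus strand), the alpha subunit that gave the complex its name, had 156 and 166 CPM uninduced and 135 CPM in each induced library (-0.25 ± 0.05, adjusted p = 0.000968). CCT5 (YJR064W, chrX:555914-557602, plus strand), the epsilon subunit, had 189 and 205 CPM uninduced and 158 and 172 CPM induced (-0.25 ± 0.06, adjusted p = 0.00216). TCP1 was the lowest of the 8 in every library, in CPM and per kb, and CCT5 had the widest replicates of the 8 among the induced libraries on the log2 scale.

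CCT8 (YJL008C, chrX:419957-421663, minus strand), the theta subunit, had 208 and 226 CPM uninduced and 191 and 182 CPM induced (-0.22 ± 0.06, adjusted p = 0.00389). CCT7 (YJL111W, chrX:207877-209529, plus strand), the eta subunit, had 253 and 246 CPM uninduced and 222 and 216 CPM induced (-0.19 ± 0.05, adjusted p = 0.00414). The 2 groups did not overlap for either gene, nor for any other of the 8, beside 86.0% of all genes whose groups did not overlap. Coordinates are gene spans of the R64 build, and each subunit gene is a single coding stretch with no intron.

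**Figure D1:**
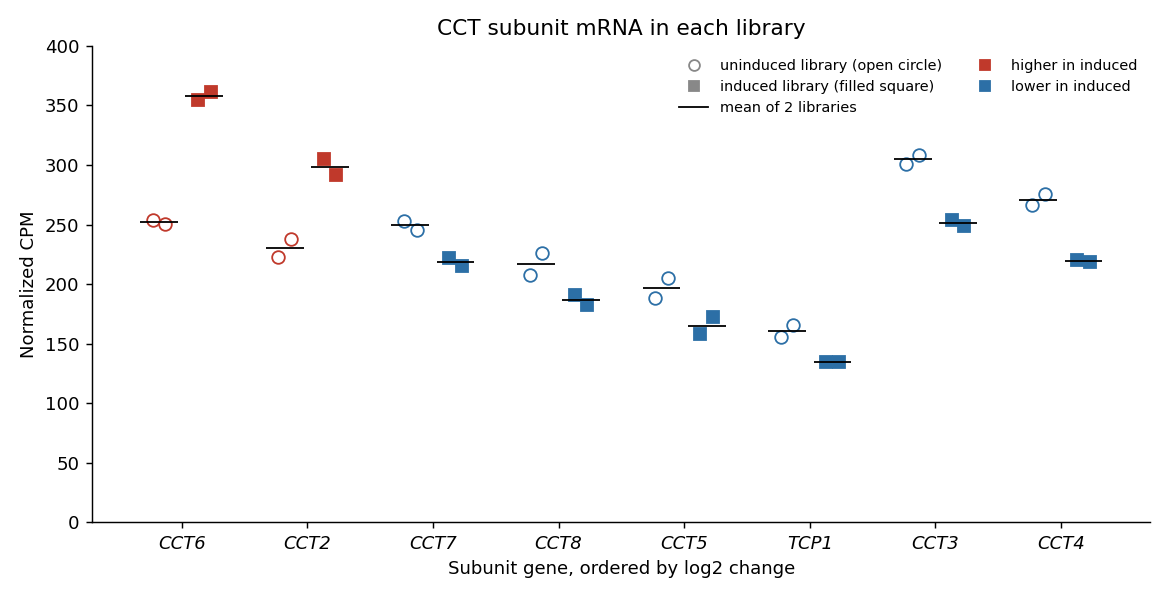
Normalized CPM (linear axis from 0) of the 8 subunit genes in each library, with open circles for uninduced and filled squares for induced libraries and a line at each mean of 2. CCT6 reaches 355 and 361 CPM and CCT2 305 and 291 CPM after induction, above their uninduced libraries, and the other 6 genes lie lower in the induced libraries.

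How firm a subunit's call was depended on its size. The 6 lower subunits fell by 12.2% (CCT7) to 18.9% (CCT4) of the uninduced mean. Tested against a change of 1.2-fold instead of no change, only CCT6 passed (adjusted p = 0.000454), beside 44.5% of all genes, and CCT2 had adjusted p = 0.0636. Scaling by total reads instead shifted the log2 change of the median gene to 0.12 and the share of calls that were higher from 49.1% to 60%. Under it 73.5% of genes were called, and CCT5 (-0.13, adjusted p = 0.0728), CCT7 (-0.06, adjusted p = 0.282) and CCT8 (-0.09, adjusted p = 0.154) did not pass. The directions of all 8 held under that scaling. In the authors' deposited table only CCT6 passed an adjusted p of 0.05 (0.0428), beside 38.4% of its rows, the other subunits had adjusted p of 0.104 to 0.458, and all 8 had the same sign as here.

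The level of a subunit against the mean of the 8 in the same library does not depend on the scaling between libraries. On the log2 scale CCT6 stood 0.16 and 0.09 above that mean uninduced and 0.69 and 0.72 above it induced. CCT2 stood at -0.03 and 0.01 uninduced and at 0.47 and 0.41 induced. CCT4 went from 0.23 and 0.22 to 0.00 and 0.00, so that a subunit among the more abundant ended at the mean. By construction these differences cancel over the 8 genes, so the rise of CCT6 and CCT2 against the mean also lowers the others against it. For all 8 the groups did not overlap on this measure, beside 85.3% of all genes measured against the same mean.

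**Figure D2:**
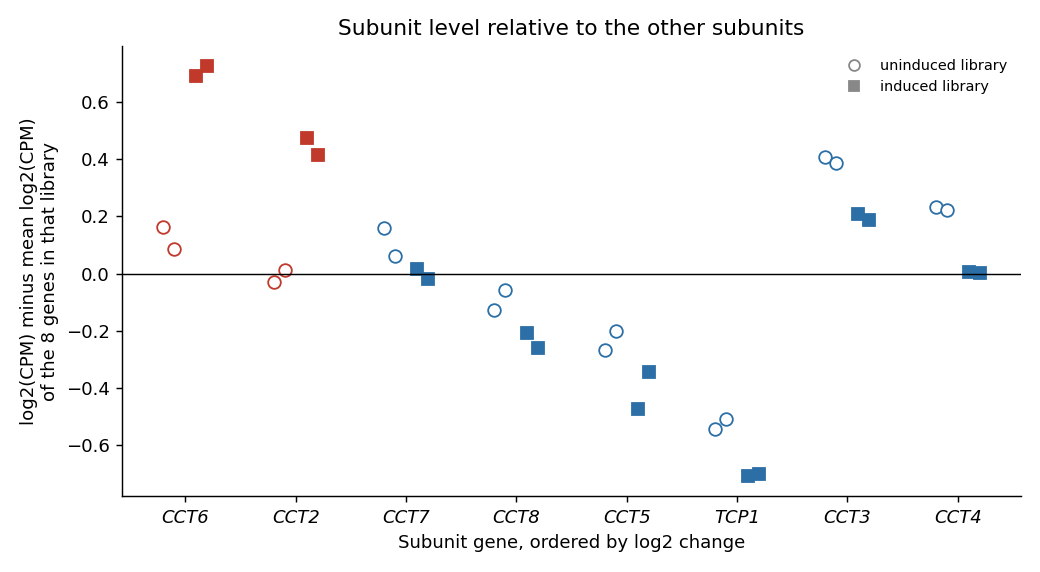
Level of each subunit gene relative to the mean of the 8 genes in the same library (log2 of CPM), with open circles for uninduced and squares for induced libraries. CCT6 moves from 0.16 and 0.09 to 0.69 and 0.72, and TCP1 from -0.54 and -0.51 to -0.71 and -0.70.

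Ratios of a rising to a falling subunit shifted. There were 0.738 and 0.771 CPM of CCT2 per CPM of CCT3 before induction, and 1.201 and 1.17 after it. The ratio of CCT4 to CCT6 fell from 1.05 and 1.10 to 0.622 and 0.606. Over the 12 pairs of a rising and a falling subunit the log2 ratio moved by 0.56 to 0.81, and over the 15 pairs among the 6 falling subunits by at most 0.11. CCT2 and CCT6 kept closer to each other, with 0.875 and 0.950 CPM of CCT2 per CPM of CCT6 uninduced and 0.860 and 0.807 induced. No test of these ratios was made, since the pairs were sorted by the same values, and they stand as a description.

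Per kb of coding length, which is 1584 to 1707 bases for the 8 genes, levels can be set side by side. In the uninduced cells the order was CCT3 (190 ± 3.15 CPM per kb), CCT4 (171 ± 3.91), CCT6 (154 ± 1.66), CCT7 (151 ± 3.14), CCT2 (145 ± 6.85), CCT8 (127 ± 7.74), CCT5 (117 ± 6.85) and TCP1 (95.7 ± 4.15). CCT6, CCT7 and CCT2 followed each other so closely that neighbours in this order overlapped between libraries. In the induced cells CCT6 led with 218 ± 2.78 CPM per kb, followed by CCT2 with 188 ± 6.18 and CCT3 with 157 ± 2.24, and the order of the rest was as before. The gap between the highest and the lowest subunit widened from 1.99 ± 0.0532 times to 2.72 ± 0.0366 times.

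As a share of the summed level per kb of the 8 genes, where an equal share is 12.5%, CCT6 went from 13.4% ± 0.468 to 19.5% ± 0.366 and CCT2 from 12.63% ± 0.290 to 16.8% ± 0.450 (SD, n = 2). The pair together held 26.1% and 25.9% before induction and 36.3% and 36.2% after it. CCT3 held 16.6% and 16.4% before and 14.1% and 13.9% after, and CCT4 went from 14.8% ± 0.0196 to 12.3% ± 0.0134. The sum of the 8 genes changed far less than its make-up, with 1849 and 1914 CPM uninduced and 1840 and 1825 CPM induced. The direction of the sum rests on the scaling, since as a share of all reads the 8 genes held 0.180% and 0.184% uninduced and 0.194% and 0.193% induced.

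**Figure D3:**
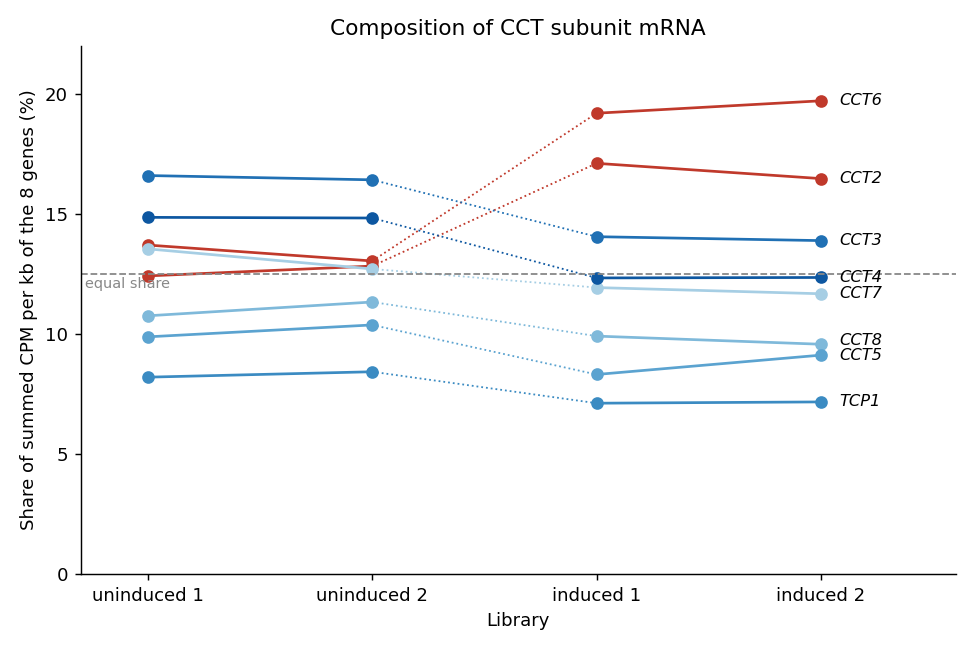
Share of each subunit gene in the summed CPM per kb of the 8 genes, by library, with red for the subunits called higher and blue for those called lower; solid lines join libraries of a group, dotted lines the groups, and the dashed line marks an equal share of 12.5%. CCT6 and CCT2 together hold 26.1% and 25.9% of the sum before and 36.3% and 36.2% after induction, and TCP1 has the smallest share in all 4 libraries.

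Because the subunits split into rising and falling genes, their upstream regions are set side by side. Windows run from 250 bases before to 50 bases after the first base of the start codon, were read from the RefSeq R64 genome, and are written 5′ to 3′ on the coding strand. Capitals mark the letters of the motifs searched on both strands. CCT6 and CCT2 are shown as the rising pair, CCT4 as the subunit with the largest fall, and CCT5 because it shares motif letters with CCT2 while its mRNA moved the other way.
CCT6, chrIV:836171-836470, plus strand: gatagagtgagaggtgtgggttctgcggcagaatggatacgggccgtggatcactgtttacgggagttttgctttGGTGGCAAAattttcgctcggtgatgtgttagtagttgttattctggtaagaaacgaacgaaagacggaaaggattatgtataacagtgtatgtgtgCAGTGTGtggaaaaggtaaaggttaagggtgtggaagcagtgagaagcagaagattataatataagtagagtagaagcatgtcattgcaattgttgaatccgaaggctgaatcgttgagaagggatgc
CCT2, chrIX:83052-83351, plus strand: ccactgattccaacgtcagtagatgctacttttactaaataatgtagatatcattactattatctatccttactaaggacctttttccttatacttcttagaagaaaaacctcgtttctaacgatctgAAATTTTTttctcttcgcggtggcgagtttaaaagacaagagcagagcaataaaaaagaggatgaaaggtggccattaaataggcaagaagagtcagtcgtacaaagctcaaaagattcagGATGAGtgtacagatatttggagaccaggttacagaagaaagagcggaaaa
CCT4, chrIV:199746-200045, plus strand: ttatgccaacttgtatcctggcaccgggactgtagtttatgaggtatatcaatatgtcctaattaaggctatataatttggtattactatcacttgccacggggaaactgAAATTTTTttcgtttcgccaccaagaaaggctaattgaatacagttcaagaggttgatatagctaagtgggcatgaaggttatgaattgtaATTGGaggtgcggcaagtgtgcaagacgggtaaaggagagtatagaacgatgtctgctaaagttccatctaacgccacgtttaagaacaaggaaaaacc
CCT5, chrX:555664-555963, plus strand: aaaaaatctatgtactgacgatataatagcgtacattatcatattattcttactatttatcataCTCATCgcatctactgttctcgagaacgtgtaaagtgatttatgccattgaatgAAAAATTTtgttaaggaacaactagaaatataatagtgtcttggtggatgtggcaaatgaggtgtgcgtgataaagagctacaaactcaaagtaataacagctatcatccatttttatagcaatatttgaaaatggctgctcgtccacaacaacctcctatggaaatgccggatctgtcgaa

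CCT6 was the only subunit gene whose window held the exact letters GGTGGCAAA, at position -175. They are the proteasome-associated control element PACE that the transcription factor Rpn4 binds. Of 6001 promoter windows of that length 1.2% held those letters. CCT6 also held CAGTGTG at position -78, a match to CAGNGTG, the core of the unfolded protein response element, which was added to the search after the data were seen and is found in 5.40% of windows. Neither motif, as searched, had a match in the window of CCT2. Near variants of PACE were not searched over all windows, so no share can be set beside those that follow. GGTGGCGA stands in the windows of CCT2, which rose, and CCT4, which fell, in CCT4 on the other strand. AGTGGCAAA stands in those of TCP1 and CCT8, which both fell. TGTGGCAAA stands in that of CCT5, and AGTGGCGA in those of CCT7 and, on the other strand, CCT3, which all fell. A match describes the letters of a window and shows no binding.

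The letters AAAAATTT of the RRPE element, known from genes of ribosome biogenesis, occurred in CCT2, CCT4 and CCT5, at positions -122, -140 and -132, and in 14.1% of all windows. The PAC letters GATGAG, known from the same gene class, occurred in CCT2 and CCT5 and in 20.4% of windows, and the match in CCT2 includes the start codon. CCT2 rose while CCT4 and CCT5 fell, so these letters did not separate the rising from the falling subunits. A heat shock element core, TTCNNGAA, was found in CCT7 alone (12.9% of windows), the other phase GAANNTTC in none of the 8 (11.8%) and the heat shock element of 3 units in none (0.783%). The stress response element AGGGG (21.6%) and the MCB element ACGCGT (3.07%) had no match in the 8 windows. CCAAT (43.3%) matched in TCP1 and CCT4, and the match in TCP1 lies at position 6, after the start codon. None of the 8 windows reached into a neighbouring gene of the RefSeq annotation.

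The subunit genes lie at separate places on chromosomes IV, IX and X, and their nearest protein-coding neighbours were read for comparison. Of 16 neighbours 15 were tested, with 4 called higher, 6 lower and 5 in neither direction, a share called near the 72.7% of all genes. GCD6, upstream of TCP1 and the gene of a subunit of the exchange factor eIF2B, rose from 107 ± 8.18 to 142 ± 2.18 CPM (0.41 ± 0.06) beside a falling subunit gene. Both neighbours of CCT7, MDV1 (-0.59 ± 0.06) and GZF3 (-0.59 ± 0.06), fell as it did. Both neighbours of CCT6 rose, YDR186C upstream (SND1 in RefSeq, a factor that directs proteins to the ER) from 221 ± 19.6 to 400.1 ± 7.43 CPM and SLY1 downstream, a fusion factor of ER-to-Golgi transport, from 178 ± 2.96 to 309 ± 6.93 CPM. Downstream of CCT2, AXL2, a bud-site landmark gene, rose from 132 ± 5.04 to 230 ± 19.3 CPM (0.79 ± 0.06), and SSL2 on the upstream side did not pass (-0.08 ± 0.06, adjusted p = 0.285). SLY1 and AXL2 lie on the same strand as the subunit gene before them, 330 and 480 bases beyond its end; the part of such neighbours in the counts was not tested. Dubious reading frames that overlap CCT6, CCT2 and CCT8 (YDR187C, YIL142C-A and YJL009W) held 2 to 14 reads per library, at most 1.14 CPM.

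Of the 6 subunit genes of prefoldin 1 rose, 3 fell and 2 passed in neither direction, with a median of -0.24 and a spread of 1.39. The share called lies near the 72.7% of all genes. YKE2 had 62.9 and 64.6 CPM uninduced and 111 and 116 CPM induced, with no overlap (0.82 ± 0.06, adjusted p = 6.7e-08). PAC10 fell from 69.6 ± 0.595 to 46.5 ± 0.899 CPM (-0.57 ± 0.07), GIM4 from 38.6 ± 0.654 to 27.9 ± 1.69 CPM (-0.46 ± 0.08) and PFD1 from 51.7 ± 3.45 to 38.2 ± 1.41 CPM (-0.43 ± 0.08). GIM3 (50.8 ± 3.02 and 48.7 ± 2.51 CPM) and GIM5 (74.0 ± 2.83 and 72.5 ± 2.03 CPM) overlapped between groups. The wider spread of prefoldin than of CCT was not tested. PLP2, an essential phosducin-like cofactor needed for actin folding, fell from 94.0 ± 10.03 to 69.2 ± 0.308 CPM (-0.43 ± 0.07).

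Among 7 genes of cytoskeletal clients 2 rose and 3 fell, beside 72.7% of all genes called, with a median of 0.02. The balance rests on the scaling, with 4 higher and 1 lower under total-read scaling and 4 higher and 2 lower under quantile normalization, and without uninduced library 2 only 2 higher and 1 lower were called. ACT1, the actin gene and the main client of CCT, had 1352 ± 64.2 CPM uninduced and 1377 ± 4.55 CPM induced and did not pass (0.03 ± 0.06, adjusted p = 0.693). It was called higher under total-read scaling (0.15, adjusted p = 0.0211) and under quantile normalization (0.36, adjusted p = 3.54e-05), so whether ACT1 rose depends on the scaling. TUB1, the major gene of alpha-tubulin, fell from 343 ± 2.58 to 229.7 ± 11.2 CPM (-0.58 ± 0.05), and TUB3, its minor counterpart, rose from 203 ± 8.57 to 289.7 ± 17.2 CPM (0.51 ± 0.06). TUB1 and TUB3 are close paralogs, and how reads shared by them were counted is not given in the sources used here. TUB4, the gene of gamma-tubulin, fell from 34.7 ± 1.37 to 29.2 ± 1.52 CPM (-0.24 ± 0.09, adjusted p = 0.023). That call was lost under total-read scaling (adjusted p = 0.224), with DESeq2 (adjusted p = 0.118) and against a 1.2-fold change (adjusted p = 0.912). It was also lost without uninduced library 2 (log2 change -0.20) and without induced library 2 (-0.19). Of the whole list, 1 gene was called in each direction against a 1.2-fold change, beside 44.5% of all genes.

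Tubulin folding cofactors act on tubulin after CCT releases it. Of 6 genes 3 rose and 1 fell, with a median of 0.19, and the share called lies near the 72.7% of all genes. Under total-read scaling 5 were called higher and 1 lower, where 73.5% of all genes were called and 60% of those calls were higher. Against a 1.2-fold change 1 was called in each direction, beside 44.5% of all genes called. ALF1, the yeast cofactor B, rose from 43.4 ± 0.707 to 87.8 ± 0.982 CPM (1.00 ± 0.07, adjusted p = 2.21e-08) and PAC2, cofactor E, from 18.2 ± 0.973 to 25.5 ± 0.460 CPM (0.47 ± 0.10). CIN2, cofactor C, fell from 18.7 ± 2.55 to 10.1 ± 0.925 CPM (-0.83 ± 0.13). In the list of 6 genes of WD40 proteins, of which several are known CCT clients, 0 rose and 4 fell (median -0.24). Beside it, 72.7% of all genes tested were called, 35.6% higher and 37.0% lower. STE4, the G-protein beta subunit of the pheromone pathway, fell from 174 ± 2.49 to 90.4 ± 0.813 CPM (-0.94 ± 0.05), CDC55, a regulatory subunit of protein phosphatase 2A, from 183 ± 7.38 to 153 ± 0.316 CPM and CDC20, an activator of the anaphase-promoting complex, from 45.5 ± 1.495 to 38.1 ± 0.303 CPM. Of the 4 only STE4 was called under total-read scaling, where CDC55 had adjusted p = 0.0541 and CDC20 adjusted p = 0.150, and against a 1.2-fold change. CDC20 also missed the threshold without induced library 1 (adjusted p = 0.0529) and with DESeq2 (adjusted p = 0.0672).

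Most genes of the ribosome-associated chaperones and of the cytosolic Hsp70 system fell. All 7 ribosome-associated chaperone genes fell, beside 37.0% of all genes, with a median of -0.67, among them SSB1 (1629 ± 76.4 to 790 ± 8.59 CPM), SSB2 (1478 ± 109 to 785 ± 2.88 CPM) and BTT1, a subunit of the nascent chain complex (14.1 ± 0.145 to 6.78 ± 0.408 CPM). SSB1 and SSB2 are near-identical, so their split is uncertain. Of 9 genes of the cytosolic Hsp70 system (Hsp70s, their relatives SSE1 and SSE2, J-proteins and the exchange factor FES1) 2 rose and 7 fell (median -0.53). Over all genes 72.7% were called, 35.6% higher and 37.0% lower. SSA4 (-1.56 ± 0.05) and the J-protein gene SIS1 (-0.85 ± 0.06) fell, and SSA3 rose from 39.4 ± 3.68 to 77.3 ± 0.791 CPM (0.96 ± 0.08). The mitochondrial chaperonin, a related barrel built from a single kind of subunit, fell in both parts, beside 37.0% of all genes called lower. HSP60 fell by 0.84 on the log2 scale and its lid HSP10 by 0.43. The 6 falling CCT subunits moved the same way by less, and CCT6 and CCT2 moved the other way. No test of CCT against these lists was made, so their medians stand as a description. Some called genes named from the lists did not pass an adjusted p of 0.05 in the authors' deposited table. They were HSP10 (0.0909), PFD1 (0.124), GIM4 (0.0585), PAC2 (0.0931), CDC55 (0.240), CDC20 (0.265) and TUB4 (0.360). The other called genes named from the lists passed there.

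**Figure D4:**
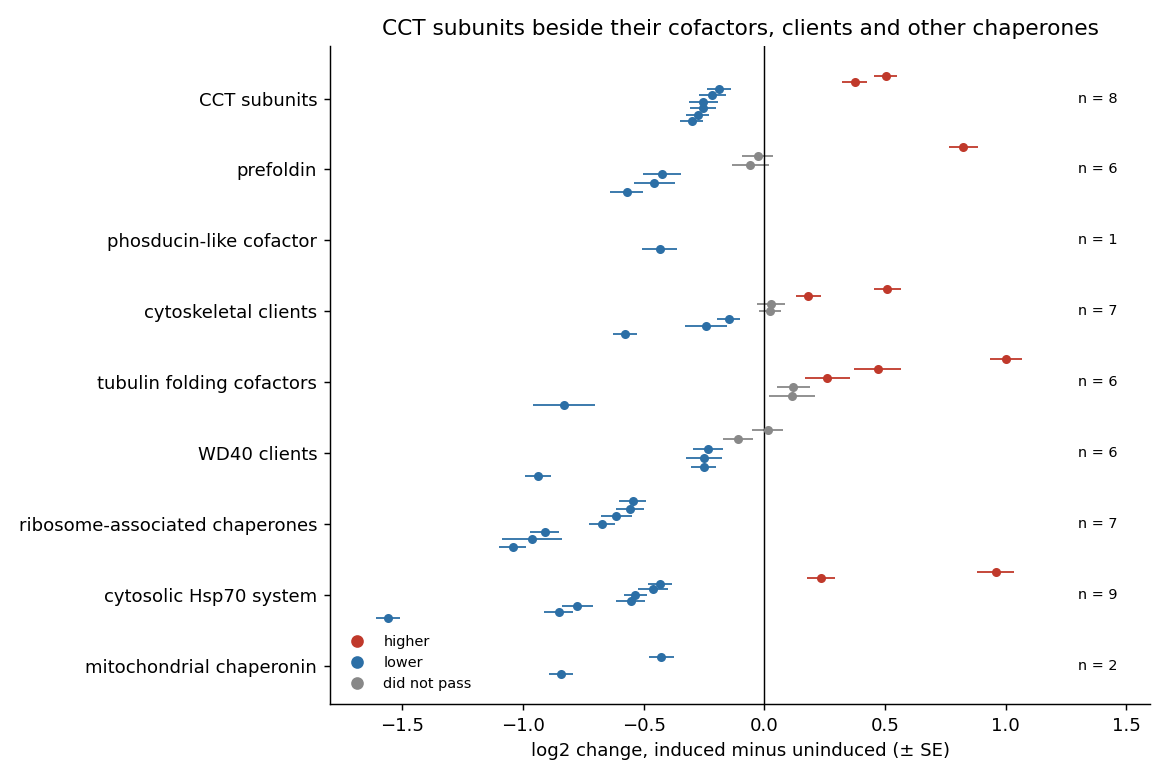
Log2 change of every gene reported of CCT and of the 8 lists set beside it (induced minus uninduced, bars ± SE of the limma fit), red for higher, blue for lower and grey for genes that did not pass; n is the number of genes in a list. CCT, prefoldin, the cytoskeletal clients, the tubulin folding cofactors and the Hsp70 system hold called genes on both sides of 0, and all 7 ribosome-associated chaperone genes lie below it.

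Of 2862 other genes with a mean between 73.8 and 610 CPM, those nearest to the averaged profile of the 8 subunits, by Euclidean distance of centred log2(CPM + 1) over the 4 libraries, were MAP2 (0.0144), RNQ1 (0.0173), URA8 (0.0202), YVC1 (0.0215) and LCB1 (0.0266). None of these 5 was called, with log2 changes of -0.09 to -0.05. The averaged profile is nearly flat, since it mixes rising and falling subunits, and it matches no single member.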

How the data were processed

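RNA of 4 yeast libraries was sequenced after a stranded mRNA kit, per the labels' protocols. The submitters' processing notes list TopHat2 (2.0.13), HTSeq, edgeR and the builds sacCer3 and R64 and give no role for each; annotation release and strand setting are not stated. Per the file headers the deposited signal is CPM, normalized by the authors. All values of a library (100%) were whole multiples of its smallest step within 0.001 reads, which gave the reads; for uninduced library 2 that step lies near a round decimal, so the evidence is weaker. The authors' deposited log2 fold changes and adjusted p-values served as a description.

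Values were tested as log2(CPM + 1) with limma 3.58.1 in R 4.3.3, by group alone, two-sided and with an intensity trend, on the 6037 genes averaging at least 1 CPM. The plan assumed plain CPM and was kept. edgeR 4.0.16, DESeq2 1.42.0 and other settings were alternatives, and fits were tested on simulated data. Members and lists were chosen with earlier results of these data known. All genes of CCT, prefoldin and the mitochondrial chaperonin are named, and from each other list the 3 called genes with the largest change, and 1 gene of these lists is not reported here. ACT1 was named beyond that rule, after its values were seen. Replicates differed by more than sampling noise (chi-square per degree of freedom 4.56 and 4.83).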

Additional observations from a re-analysis of the deposited data

How the results depend on the processing

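Each of the 8 subunits kept its direction under all 17 alternatives. Where only the filter, the test or a replicate block changed, the log2 change was the same by construction and could not turn. Of 136 subunit values 125 kept their call and 11 lost it, and CCT6 was called in every alternative. Total-read scaling left 5 subunits called, of which 3 were lower, and a median of -0.11. Quantile normalization left 7 (without CCT7), a median of -0.16 and a spread of 0.89. Against a 1.2-fold change 1 subunit and 2685 genes passed. Leaving out each library in turn, where the lone library of a group is assumed to vary like the other pair, gave 8 called subunits, a median of -0.29 to -0.20, and 3911 to 4228 genes called. Of 425 values of the other chaperone and client genes named here 404 kept direction and call, 13 lost the call and 2 gained one, both of ACT1 (0.15 with total-read scaling and 0.36 with quantile normalization). Genes that turned direction were members that did not pass: GIM3 (0.065) and GIM5 (0.10) with total-read scaling, and GIM3 (-0.12 to 0.0014), GIM5 (-0.066 to 0.011) and ACT1 (-0.022 to 0.075) when libraries were left out. The cause was not tested.

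The groups share replicate numbers, but same-numbered deviations correlated at -0.14 over 6037 genes. With the replicate number as a block 4512 genes and all 8 subunits were called, and no subunit call changed; with crossed numbers, chosen after seeing the data, 4399 genes and 8 subunits were. With 2 cultures per group, changes much smaller than that of CCT7 may go unseen.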
